A study of Homo sapiens with 8 samples.

Results

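The genes NPAS3, EGLN3, SPTSSA, EAPP, SNX6, CFL2 and BAZ1A follow each other on human chromosome 14, and in HepG2 cells a long domain of the histone variant macroH2A1 was called over the first 3 of them in control cells and in neither library made after knockdown of ANP32B. These 7 of 20037 annotated protein-coding genes were chosen by that absence, that is, by the domain calls of the same 4 libraries, so their domain values are given as a description, with no test. The window around them runs from 32500001 to 35000000 (hg38), between the 0.5 Mb marks that enclose all 7 spans. It touches 9 protein-coding genes, the other 2 being AKAP6 at its lower and SRP54 at its upper edge, and 24 other annotated genes.

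HepG2 is a human hepatoblastoma line widely used as a model of liver cells, and all libraries come from this line. They received by lipid transfection either siControl, an siRNA without a target, or siANP32B, which is directed at ANP32B, and were taken 3 days later. Chromatin was profiled by CUT&RUN: an antibody guides a nuclease to macroH2A1, and the DNA released in 30 min of digestion is sequenced. Of 8 libraries, 4 were made with an antibody against macroH2A1, 2 per siRNA, and the others with non-targeting IgG, which were not analysed here. The labels number the replicates without saying whether they were separate cultures, so a spread between them may be technical. Neither the extent of the knockdown nor the expression of any gene, hepatic markers included, was analysed here. The siRNA sequences that define the 2 groups are given in the labels as follows, with no base marked.
siControl: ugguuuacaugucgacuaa
siANP32B: ugacuaccgagagagugucuu

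macroH2A1 is an H2A variant whose large carboxy-terminal macrodomain sits outside the nucleosome core. It forms broad domains that are mostly associated with weakly transcribed chromatin, and ANP32B is an acidic histone chaperone that the series examines as a factor for macroH2A incorporation. EGLN3 (also PHD3) is a prolyl hydroxylase that uses oxygen to mark the alpha subunits of hypoxia-inducible factors for degradation and is itself induced by hypoxia. NPAS3 is a bHLH-PAS transcription factor known from neural development, SPTSSA a small activating subunit of serine palmitoyltransferase, the entry enzyme of sphingolipid synthesis, and EAPP a nuclear protein that binds E2F factors. SNX6 is a sorting nexin that works with retromer in transport from endosomes, CFL2 the muscle-type cofilin that severs actin filaments, and BAZ1A the large subunit of the ISWI remodellers ACF and CHRAC.

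The sequence upstream of the transcription start of 5 of the 7 genes was found in RefSeq (GRCh38.p14, the assembly called hg38). These 250 bases are shown to place gene starts inside or outside domains, and they do not mark the domain ends. Those of EGLN3, SPTSSA, SNX6 and CFL2 lay wholly in a domain of both siControl libraries. Those of NPAS3 lay outside domains in all 4 libraries. Capitals mark matches to ACGTG or GCGTG on either strand, the core letters of the hypoxia response element, which can overlap each other in CACGTG.
NPAS3, chr14:32938629-32938878, plus strand: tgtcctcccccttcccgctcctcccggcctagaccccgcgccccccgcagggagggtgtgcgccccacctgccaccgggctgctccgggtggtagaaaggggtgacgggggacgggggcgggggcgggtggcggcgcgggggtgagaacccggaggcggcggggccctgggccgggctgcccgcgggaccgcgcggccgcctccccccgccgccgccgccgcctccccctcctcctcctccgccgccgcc
EGLN3, chr14:33951075-33951324, minus strand: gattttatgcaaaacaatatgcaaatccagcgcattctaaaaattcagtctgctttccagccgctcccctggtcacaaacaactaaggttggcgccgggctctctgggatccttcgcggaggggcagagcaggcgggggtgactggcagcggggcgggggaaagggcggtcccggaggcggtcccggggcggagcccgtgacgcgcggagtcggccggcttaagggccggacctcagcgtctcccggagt
SPTSSA, chr14:34462241-34462490, minus strand: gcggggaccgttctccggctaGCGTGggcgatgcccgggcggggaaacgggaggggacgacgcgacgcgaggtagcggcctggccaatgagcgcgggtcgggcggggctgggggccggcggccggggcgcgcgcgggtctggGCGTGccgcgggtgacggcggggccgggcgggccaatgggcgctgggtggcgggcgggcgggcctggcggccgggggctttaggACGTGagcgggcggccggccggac
SNX6, chr14:34630149-34630398, minus strand: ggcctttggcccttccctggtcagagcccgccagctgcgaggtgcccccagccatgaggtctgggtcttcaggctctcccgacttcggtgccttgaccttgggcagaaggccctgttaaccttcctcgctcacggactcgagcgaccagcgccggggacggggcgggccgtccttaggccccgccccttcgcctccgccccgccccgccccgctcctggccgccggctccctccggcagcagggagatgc
CFL2, chr14:34714594-34714843, minus strand: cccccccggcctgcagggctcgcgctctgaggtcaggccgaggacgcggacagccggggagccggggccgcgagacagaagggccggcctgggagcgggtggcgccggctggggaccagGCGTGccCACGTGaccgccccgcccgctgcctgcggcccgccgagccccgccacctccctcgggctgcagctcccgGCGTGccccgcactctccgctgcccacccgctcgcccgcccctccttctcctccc
The 5 upstream sequences shown held more CpG than most, with 33 CpG in NPAS3, 23 in EGLN3, 43 in SPTSSA, 22 in SNX6 and 31 in CFL2, against a median of 11 over 35116 RefSeq upstream sequences of the same length. RefSeq lists a second start for CFL2, whose upstream sequence (34713796 to 34714045, not shown) holds 4 CpG and no match, and which was also wholly in a domain of both siControl libraries. The sequence outside domains (NPAS3) and the 4 shown inside thus overlapped in CpG number. The core letters were found 3 times upstream of SPTSSA and 4 times upstream of the CFL2 start shown, and not in the windows of the other 3. Of all upstream sequences, 43.2% hold at least 1 such match.

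In control cells EGLN3 lay deep inside 1 long macroH2A1 domain. A domain is a stretch that the authors' caller marked as enriched in 1 library. Each has its own score, and its ends fall on multiples of 1 kb. In siControl replicate 1 the domain ran from 33393001 to 34454000 (1061 kb) and in siControl replicate 2 from 33664001 to 34516000 (852 kb), each the third longest domain of its library. The lower ends of the 2 calls differed by 271 kb and the upper ends by 62 kb. Their intersection, from 33664001 to 34454000, was 790 kb long. It holds the end of NPAS3, all of EGLN3, most of SPTSSA and 6 annotated genes that do not code for protein. Of its length, 24.2% lay in protein-coding gene spans and 44.4% outside all annotated genes.

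The scores of these 2 calls were low and unlike each other. The deposited score is the caller's own, and it has no stated scale. It is used here to rank domains within a library, and where scores of several libraries are averaged or held to 1 minimum, that they share a scale is assumed. It was 8.25 in siControl replicate 1, the lowest of 8623 domains in that library, and 51.6 in siControl replicate 2, above 6.78% of its 8116 domains. The median scores of the 2 libraries were 88.9 and 97.7. Low scores were unevenly spread over chromosomes: of the 50 lowest-scored domains of each list, 37 and 46 (siControl) and 38 and 40 (siANP32B) were on chromosomes 2, 14, 16, 17 and 20, which are known to be gained in HepG2 cells, although these chromosomes held 17.8% to 21.6% of all domains. Those 5 chromosomes are pooled in these counts, and chromosome 14 alone did not have low median scores. Its medians were 88.2 and 103.8 in the siControl lists, against 88.9 and 97.7 for all domains. In the siANP32B lists they were 71.7 and 73.2, against 70.1 and 67.5. The part of copy number in the result was not tested.

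**Figure D1:**
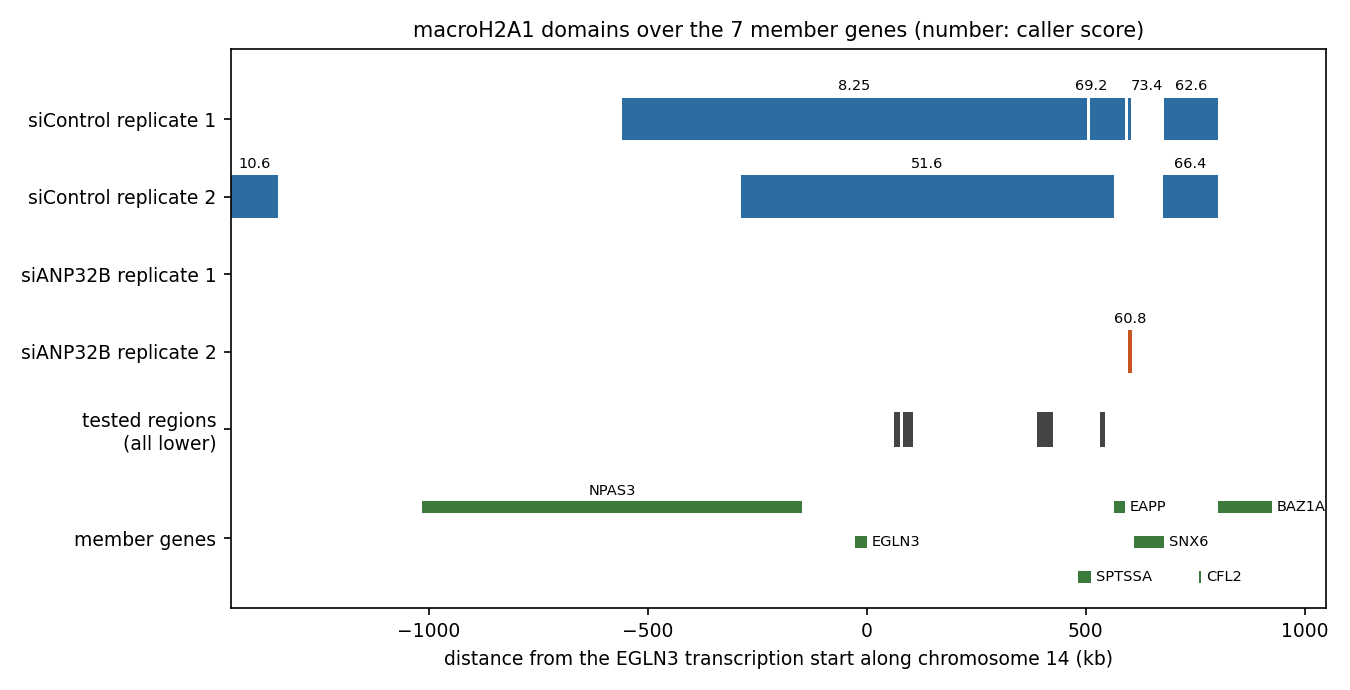
Domains of the 4 anti-macroH2A1 libraries (bars, with the caller score as deposited), the authors' tested regions and the 7 member genes, by distance in kb from the EGLN3 transcription start. The siControl libraries have domains of 1061 and 852 kb over EGLN3, siANP32B replicate 1 has no domain in view and siANP32B replicate 2 has 1 of 8 kb.

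After siANP32B the window was almost free of domains. Domains covered 1273 and 1084 kb of the 2500 kb in the siControl libraries, or 1178.5 ± 134 kb (SD, n = 2), and 0 and 8 kb in the siANP32B libraries, or 4 ± 5.66 kb (SD, n = 2). Both siControl libraries were high and both siANP32B libraries near 0, a difference of -1174.5 kb. Outside the 790 kb stretch the window still held 483 and 294 kb under siControl, against 0 and 8 kb in siANP32B libraries. With 2 libraries against 2 an exact permutation test cannot give a two-sided p below 0.333, and none is given because the window was picked for this difference. Chromosome 14 as a whole did not follow: domains covered 16.8 and 15.5 Mb of it in siControl, and 15.2 and 17.6 Mb after siANP32B. Over the genome, domains covered 16.8% and 15.1% under siControl, against 18.3% and 18.1%, larger shares, after siANP32B.

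The single remaining domain lay between EAPP and SNX6. It ran from 34548001 to 34556000 in siANP32B replicate 2, with a score of 60.8, and nearly matched a domain from 34548001 to 34555000 in siControl replicate 1, with a score of 73.4. It overlaps a noncoding gene, LOC105370449, chosen for mention after its values were seen, and no member. siControl replicate 2 and siANP32B replicate 1 had no call there, so this short domain did not separate the groups.

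EGLN3, the hypoxia-responsive hydroxylase gene, was covered along 100% of its 26.8 kb span (33924227 to 33951074) in both siControl libraries and 0% in both siANP32B libraries. SPTSSA (34432788 to 34462240) was covered by 77.4% and 100% under siControl, against 0% in both siANP32B libraries. The lower share comes from a gap between 2 domains of siControl replicate 1 that crosses the gene, and the SPTSSA start lay in a domain of both siControl libraries.

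NPAS3 behaved differently along its length. Its span of 869 kb (32934785 to 33804173) was covered by 47.3% and 16.2% under siControl, against 0% in both siANP32B libraries. The covered part was the distal end of the gene: 411 kb in siControl replicate 1 and 140 kb in siControl replicate 2. The domain began 458 and 729 kb beyond the first base of the span, so the first base of NPAS3, like the later transcription start whose upstream sequence is shown above, was outside domains in all 4 libraries. The siControl libraries differed from each other by almost as much as their mean of 31.7% ± 22 (SD, n = 2).

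EAPP, the E2F-associated gene, depended on which control library was read. It was covered by 100% of 23.8 kb (34515938 to 34539701) in siControl replicate 1 and by 4% in siControl replicate 2, where the long domain ended 1 bin inside the gene, and by 0% in both siANP32B libraries. The mean difference of -52 points was about as large as the pooled SD of 48. SNX6 (34561093 to 34630148) and BAZ1A (34752731 to 34875360) were touched at 1 end each, by a separate siControl domain, the one over CFL2. SNX6 was covered by 2.86% and 4.29% in the siControl libraries and BAZ1A by 1.61% and 0.806%, and both by 0% in the siANP32B libraries. The SNX6 transcription start and its upstream sequence were inside the domain over CFL2 although nearly all of the gene was not.

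CFL2, the muscle cofilin gene, sat in a second control domain that was called more evenly. That domain ran from 34629001 to 34754000 in siControl replicate 1 and from 34628001 to 34753000 in siControl replicate 2, 125 kb in each, with both ends within 1 kb of each other. Its scores were 62.6 and 66.4, above 24.4% and 18.4% of the domains of the 2 libraries. CFL2 (34709113 to 34714593) was covered by 100% in both siControl libraries and 0% in both siANP32B libraries. With domains under a common score of 56.8 left out of all 4 lists, the CFL2 difference was still -100 points. Those of EGLN3 and NPAS3 became 0 points because both siControl calls over them fell below that score. No siANP32B call lay over CFL2 to be left out, so the unchanged value shows only that both siControl calls pass that score.

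**Figure D2:**
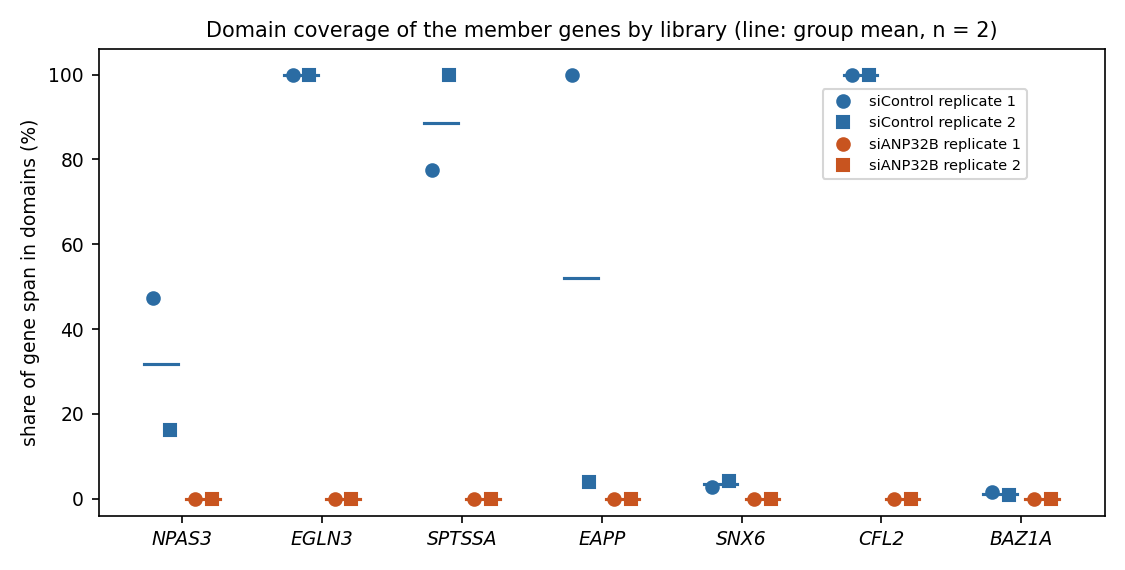
Share of each member's gene span in domains, in percent, for each of the 4 libraries (points) with the mean of 2 libraries (lines). EGLN3 and CFL2 are at 100% in both siControl libraries, EAPP is split between 100% and 4%, and all 7 genes are at 0% in both siANP32B libraries.

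All 7 members had a higher share in both siControl than in both siANP32B libraries, as did 2.88% of all protein-coding genes, and 3 of them (EGLN3, SPTSSA, CFL2) were covered by at least 50% in both siControl and 0% in both siANP32B libraries, as were 0.374% of all. The members were proposed from these values, so nothing is read from those counts. The other 2 protein-coding genes of the window lie at its edges. AKAP6, a scaffold gene for protein kinase A, was covered by 0% and 54.6% under siControl, against 0% in both siANP32B libraries, by a domain of siControl replicate 2 that has the lowest score of its list, 10.6. SRP54, a subunit of the signal recognition particle, was 0% covered in all 4 libraries.

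The absence was wider than the long domain. In siANP32B replicate 1 no domain was called between 23961001 and 43644000, a gap of 19.7 Mb around EGLN3 with 89 protein-coding genes, and in siANP32B replicate 2 none between 24119001 and 34548000, a gap of 10.4 Mb with 54. Of the 7507 and 7381 gaps between neighbouring domains in these libraries, 5 and 9 were at least that long. The larger gap held 9 domains in each siControl library, with 2664 and 3426 kb and scores from 8.25 to 98.4 and from 10.6 to 79.8. The siControl libraries themselves had no domain over 7.33 and 6.73 Mb at its upper end. Below the window, inside the gaps of both siANP32B libraries, siControl replicate 1 had none between 24444000 and 31191001. There siControl replicate 2 had none between 24449000 and 30739001. In all, siControl domains covered 13.5% and 17.4% of the larger gap. The domain that borders the gap from below was 1995 kb long in siANP32B replicate 1, the second longest of that library, with a score of 14.8. In siANP32B replicate 2 it was 800 kb long with a score of 21.3.

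The siANP32B libraries differed from each other above the window. In the 2.5 Mb above it, siControl libraries held 745 and 1298 kb in domains and siANP32B libraries 0 and 1975 kb, a mean difference of -34.0 kb against a pooled SD of 1025 kb, so no difference between the siRNAs held up there. In the 2.5 Mb below the window, siControl libraries held 363 and 876 kb and both siANP32B libraries 0 kb. Apart from its 8 kb call, the domains of siANP32B replicate 2 resumed at 35181001, beyond BAZ1A.

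**Figure D3:**
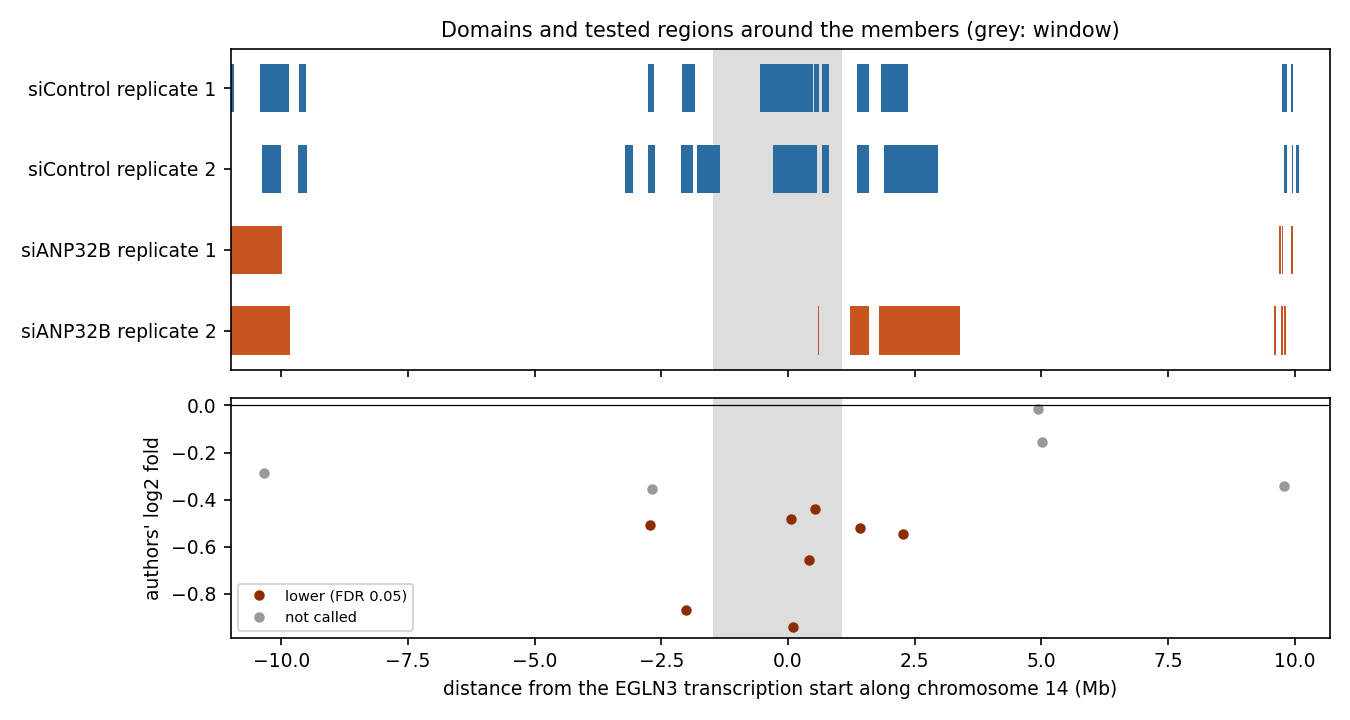
Upper panel, domains by library, and lower panel, log2 fold of the authors' tested regions, both by distance in Mb from the EGLN3 transcription start, with the window in grey. siANP32B replicate 1 has no domain over 19.7 Mb and siANP32B replicate 2 none over 10.4 Mb, while the tested regions inside the gap have folds from -0.94 to -0.01.

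The authors' own comparison found less macroH2A1 at each place tested in the window, with a remainder of more than 50% of the siControl signal. Their deposited table gives, for each region tested, a false discovery rate (FDR) and the log2 fold of 1 representative window, read as siANP32B over siControl. The order of the groups is not written in it and was read from the domain lists. The 485 regions with folds above 0 were at least 50% in domains more often in siANP32B (96.5% and 97.1%) than in siControl libraries (90.1% and 84.9%). The 3989 regions with folds below 0 differed less, with 91.4% and 92.7% in siANP32B and 95.5% and 93.5% in siControl libraries. The direction of all folds rests on these shares. Of the 4474 tested regions in the authors' deposited table, the window holds 4, all 4 lower at an FDR of 0.05 and 0 higher, where 58.4% of all are lower and 3.82% higher. These regions take up 85.0 kb, or 3.40% of the window, and all 36 of their windows were counted as down in the authors' deposited table. Over all tested regions, 31828 of 60658 such windows were counted as down. The 2500 kb window was picked by domain calls of the same libraries, so nothing is read from its share of lower regions. The rest of the window, with all 7 genes, holds no tested region, so no fold is available for any member.

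The largest fall of the 4 lay upstream of EGLN3. In the authors' deposited table the region from 34033001 to 34057000, 81.9 kb from the EGLN3 start, had a log2 fold of -0.94 (FDR 2.19e-07), which leaves 52.1% of the siControl signal. It overlaps the noncoding genes EGLN3-AS1 and LOC102724945, named here after their values were seen. The region beside it, from 34014001 to 34027000, had a log2 fold of -0.48 (FDR 0.00682) in the authors' deposited table. It is the tested region nearest to EGLN3, at 62.9 kb, and to NPAS3, at 209.8 kb. The region from 34340001 to 34376000, outside annotated genes, had -0.66 (FDR 0.000604), and the region from 34483001 to 34495000, between SPTSSA and EAPP, had -0.44 (FDR 0.0158) in the authors' deposited table. The last is the nearest tested region to SPTSSA (20.8 kb), EAPP (20.9 kb), SNX6 (66.1 kb), CFL2 (214.1 kb) and BAZ1A (257.7 kb).

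The folds of the 4 regions spread around the middle of the table. The median of the 4 was -0.57 and that of all tested regions -0.54 in the authors' deposited table. Of all regions in the authors' deposited table, 8.63% had a lower fold than the one at -0.94, and 34.8%, 57.2% and 62.2% a lower fold than the other 3. Relative to the median of the authors' deposited table, 2 of the 4 regions were below and 2 above. The scaling of the libraries is not stated there, and another scale would move all folds together. The representative windows thus kept 52.1% to 73.7% of the siControl signal on the authors' scale while no siANP32B domain was called over any of the 4 regions.

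**Figure D4:**
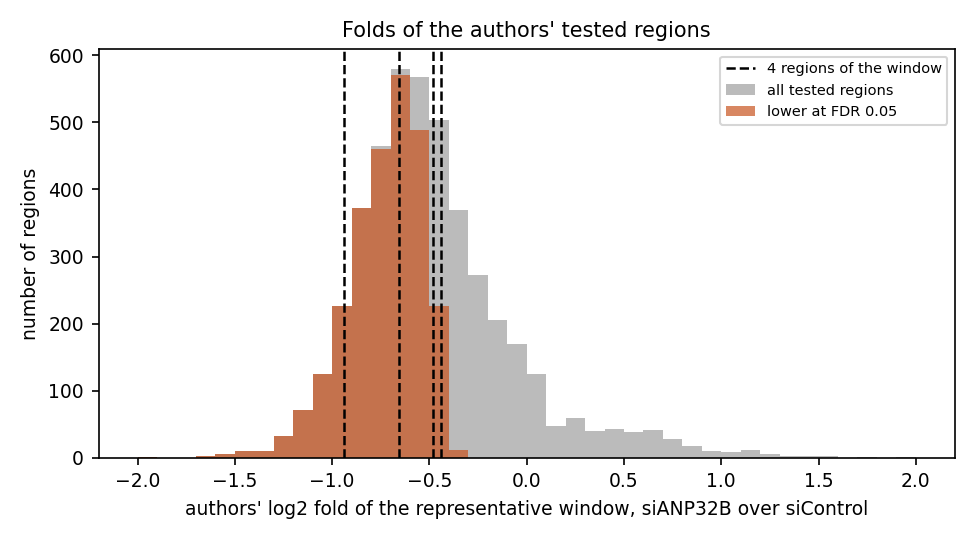
Number of the authors' tested regions by log2 fold in steps of 0.1 (grey, all; orange, lower at an FDR of 0.05), with the 4 regions of the window as dashed lines at -0.94, -0.66, -0.48 and -0.44. The lines at -0.48 and -0.44 lie above 93.1% and 97.5% of the regions called lower, at the weak edge of that set.

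A tested region without a siANP32B domain was uncommon. All 4 regions of the window were wholly in domains of both siControl libraries and in none of either siANP32B library, and 5.32% of all tested regions had no domain in either siANP32B library. In the whole table, 43 regions were at least 50% in domains of both siControl libraries and in none of the siANP32B libraries. Of these, 34 were lower and 0 higher in the authors' deposited table. The 43 were chosen by the domain lists from which the sign of the folds was read, so nothing is read from the 34 and the 0. Likewise the window was picked for its missing siANP32B domains, so its 4 regions cannot be weighed against the 5.32%. The same rows of the authors' deposited table cover the gap beyond the window: of its 11 tested regions in siANP32B replicate 1, 8 were lower, 0 higher and 3 not called. The 4 of the window are among the 11. With 58.4% of all tested regions lower, nothing is read from the 8. At 35338001 to 35391000 and 36186001 to 36239000, above the window, the log2 folds were -0.52 and -0.55 (FDR 0.00834 and 0.00198) in the authors' deposited table. At these 2 regions siANP32B replicate 1 had no domain and siANP32B replicate 2 covered them whole. Of their windows, 28 of 44 and 17 of 42 were counted as down, against all 36 in the 4 regions of the window. Window counts did not follow the calls throughout. Below the window, 31265001 to 31285000 had the same calls as those 4 regions. There, 0 of 11 windows were down, with a log2 fold of -0.36 (FDR 0.0826) in the authors' deposited table. With the same calls, 31218001 to 31238000 had 11 of 11 down and 31924001 to 31941000 had 6 of 6. Each fold is that of 1 representative window and of both libraries of a group together. It therefore cannot be matched to the call of 1 siANP32B library.

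Among all stretches shared by both siControl libraries, the 790 kb one was the second longest of 7742. No siANP32B domain touched 529 of these stretches (6.83%), with a median length of 16 kb against 31 kb for all. Of the 198 stretches of at least 200 kb, 3 were without a siANP32B domain. They were the stretch over EGLN3, its neighbour on chromosome 14 from 31856001 to 32086000 (230 kb, over parts of NUBPL and ARHGAP5), and one of 202 kb on chromosome 20 at TOP1. The mean of the 2 siControl scores of the 790 kb stretch was 29.9. Absence was more common among stretches scored this low. Of the 20 with a mean score at or below 29.9, the 790 kb stretch included, 4 (20%) were without a siANP32B domain. Among the 7722 scored above it, 525 (6.80%) were. The 790 kb stretch was chosen for its absence, so nothing is tested by these shares. The stretch over CFL2 (124 kb, mean score 64.5) and the 55 kb stretch from 34461001 to 34516000, from the first bases of SPTSSA to the edge of EAPP (mean score 60.4), were also without a siANP32B domain, so all 3 shared stretches of the window were.

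**Figure D5:**
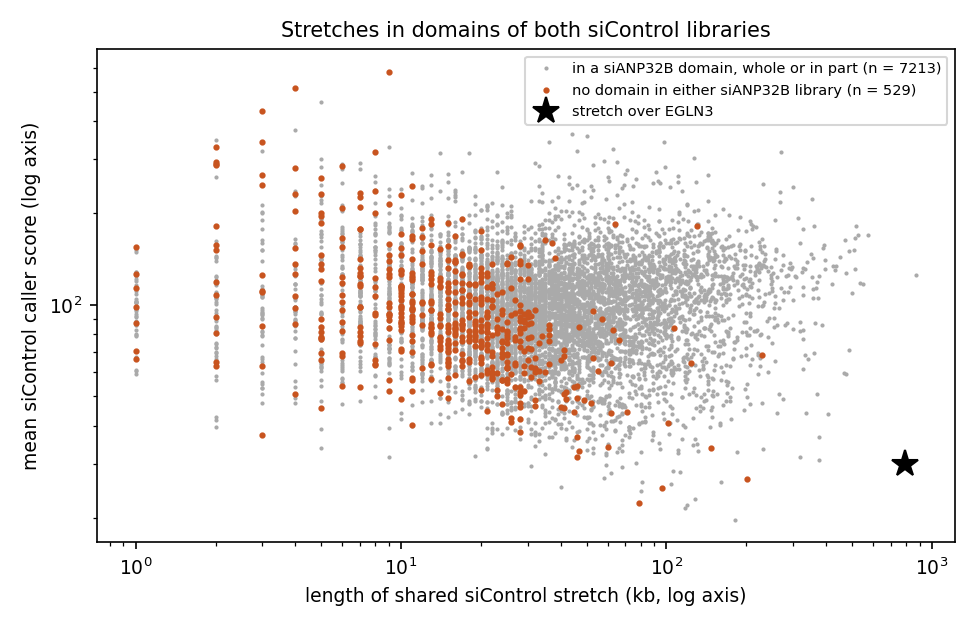
Length in kb and mean siControl caller score, both on log axes, of the 7742 stretches in domains of both siControl libraries, with the 529 that no siANP32B domain touches in orange. The stretch over EGLN3 (star) is the longest of the 529 and stands at a score of 29.9, far from the short, better-scored stretches that make up most of them.

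The genes elsewhere with the shares of EGLN3 (100% and 100% in siControl, 0% and 0% in siANP32B) were 43, and the 10 with the longest spans were taken as its nearest likenesses over 4 libraries. They were NPIPB2, MUC5AC, NYNRIN, KHNYN, ADCY4, NFATC4, RFESD, GHRH, DEFB124 and DEFB123. NYNRIN, KHNYN, ADCY4 and NFATC4 lie on chromosome 14 within the gap of siANP32B replicate 1, from 24318359 to 24441843. NPIPB2 has close copies elsewhere on chromosome 16, so its coverage is uncertain. Of the 75 genes covered by at least 50% in both siControl and by 0% in both siANP32B libraries, 13 were on chromosome 14, and all 13 lay in that gap. The opposite pattern, 0% in both siControl and at least 50% in both siANP32B libraries, was held by 195 genes.

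Genes that work with the members were described from lists. The 7 lists of partners, written with earlier results of these data known, hold 92 genes besides the members. Of these, 6 (6.52%) were covered by at least 50% in both siControl libraries and 11 (12%) in both siANP32B libraries, against 13.8% and 17.3% of all protein-coding genes. A lower region of the authors' deposited table overlapped 2 of them (2.17%, against 5.61% of all protein-coding genes), and a higher region 0 of them (against 0.539%). The pattern of at least 50% in both siControl and 0% in both siANP32B libraries was held by 0 of the 92, and by 0.374% of all protein-coding genes, a share at which a list of this size would seldom hold any, so nothing is read from the 0.

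Among 18 hypoxia genes, 3 were covered in both siControl and 3 in both siANP32B libraries. The other EGLN genes were nearly free of domains: EGLN1 was covered by 1.67% and 5% under siControl, against 0% in both siANP32B libraries, and EGLN2 by 0% in all 4. P4HTM, a transmembrane prolyl hydroxylase gene, had 36.8% and 0% with siControl and 52.6% and 0% with siANP32B. HIF1A, the factor that EGLN3 acts on and which also lies on chromosome 14, was covered by 1.85% in all 4 libraries. ADM, the adrenomedullin gene, had 66.7% and 0% under siControl, against 100% in both siANP32B libraries, and CA9, a carbonic anhydrase gene, 66.7% and 55.6% against 44.4% and 0%. HIF3A kept its domain, with 100% in both siControl and 100% and 91.5% under siANP32B, and overlapped a lower region with a log2 fold of -0.75 in the authors' deposited table.

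Of the 16 bHLH-PAS genes, 3 were covered in both siControl and 4 in both siANP32B libraries, and 1, HIF3A, overlapped a lower region of the authors' deposited table. NPAS1, a close relative of NPAS3, was covered by 70.4% and 66.7% under siControl, against 70.4% and 59.3% under siANP32B. NPAS4, an activity-induced neuronal factor, had 100% and 5.56% against 100% in both siANP32B libraries, and SIM2 70.6% and 58.8% against 98.0% and 92.2%. SIM2 was thus higher in both siANP32B libraries than in both siControl libraries, the opposite of NPAS3. ARNT2 went the way of NPAS3, with 56.7% and 39.2% under siControl, against 24.7% and 22.7% under siANP32B.

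In the serine palmitoyltransferase list of 15 genes, 2 were covered in both siControl and 2 in both siANP32B libraries. SPTSSB, the paralogue of SPTSSA, was covered by 100% in all 4 libraries. ORMDL3, an inhibitor of the enzyme, had 42.9% and 0% under siControl, against 100% and 57.1% under siANP32B, and the catalytic subunit gene SPTLC3 16.7% and 3.09% against 42.6% and 16%.

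Of 14 E2F genes, 0 were covered by at least 50% in both libraries of a group, with E2F6 at 4.35% and 8.70% under siControl, against 100% and 0% under siANP32B and E2F2 at 29.6% and 22.2% against 14.8% in both. Of 13 retromer genes, 1 was covered in both siControl and 2 in both siANP32B libraries. SNX5, a partner of SNX6, had 0% in both siControl and 100% and 53.6% under siANP32B. SNX32 had 100% and 71.4% against 100% in both, with a lower region at a log2 fold of -0.46 in the authors' deposited table, and VPS29 8.33% and 0% against 0% in both.

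Of 14 cofilin genes, CFL2 alone was covered by at least 50% in both siControl libraries. The ubiquitous cofilin CFL1 had 100% and 0% under siControl, against 60% and 100% under siANP32B, and the destrin gene DSTN 15% and 10% against 100% and 22.5%. Of 13 ISWI genes, 9 were free of domains in all 4 libraries, against 46.9% of all protein-coding genes, and BAZ1A was near 0 as well. CECR2 had 11% and 0% under siControl, against 37% and 50.5% under siANP32B, and BPTF 0.625% and 0% against 10% and 6.25%.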

How the data were processed

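macroH2A1 CUT&RUN domains and a table of differential regions were used as deposited. The tools named, per the submitters' processing notes, are SICER, edgeR, deepTools, Bowtie2, SAMtools and Trim Galore, and the build is hg38. Their versions and thresholds, the caller's control library and the scaling are not stated there. Deposited by the authors were 1 domain list per anti-macroH2A1 library with a caller score per domain, and a region table, whose columns are, per the file headers, p-value, FDR, the log2 fold of a representative window and numbers of windows. It has no values per library, so no count test was made. Depth is unknown, and no interval could be computed. Its number of columns with values per sample was 0.

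Domains were placed on a 1 kb grid, and a gene's share is that of its RefSeq span (GRCh38.p14, without strand or exons) in domains, computed with Python 3.11.15 and pandas 2.3.3 and checked on simulated data. Regions were called at an FDR of 0.05. The members and lists were chosen with earlier results of these data known. Genes named are the members, coding genes of the window, up to 3 genes per list by largest change of share plus those over called regions, the 10 nearest to EGLN3, and paralogues and other genes chosen after their values were seen (P4HTM, EGLN1, EGLN2, HIF1A, NPAS1, ARNT2, SPTSSB, NUBPL, ARHGAP5, TOP1). Upstream sequences stop at the transcription start. Alternatives are a common score, equal domain numbers, bridged gaps, padded spans, other thresholds and leaving out each library.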

Additional observations from a re-analysis of the deposited data

How the results depend on the processing

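The absence over EGLN3, SPTSSA and NPAS3 rests on siControl domains of low score. The siControl calls over CFL2 scored higher, at 62.6 and 66.4, but still below the library medians of 88.9 and 97.7. With domains under a common score left out (56.8, as if the lists shared a scale, the largest of the 10th percentiles of the 4 lists), or with equal numbers of best-scored domains, the siANP32B minus siControl difference was -164.5 kb in the window and 0 kb in the 790 kb stretch under both, 0 points for NPAS3 and EGLN3 and -3.23 points for SPTSSA. These settings remove the siControl calls themselves. No siANP32B call lay over any member, so only siControl calls could change the member differences. The common score kept 7025 of 8623 and 7305 of 8116 siControl domains. Of the siANP32B domains it kept 5029 of 7530 and 4732 of 7404. In the window without the 790 kb stretch, an alternative added after seeing the data, the difference was -384.5 kb. Above the window the sign turned with equal numbers (500.5 kb), without siControl replicate 2 (242.5 kb) and without siANP32B replicate 1 (953.5 kb); the cause was not tested. With 10 kb added on each side, SNX6 came to -13.3 and BAZ1A to -7.99 points, as the domain next to them is then counted.

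Leaving out 1 library at a time gave -1269 to -1080 kb for the window, -876 to -363 kb below it and -1021.5 to 953.5 kb above it. The members ranged from -47.3 to -16.2 points (NPAS3), -100 to -77.4 (SPTSSA), -100 to -4 (EAPP, set by which siControl library stays), -4.29 to -2.86 (SNX6) and -1.61 to -0.806 (BAZ1A), and stayed at -100 for EGLN3 and CFL2. Stretches absent after siANP32B numbered 529 of 7742. With a common score, which kept a smaller part of the siANP32B than of the siControl domains, they numbered 1044. They numbered 943 to 1227 with 1 library left out, as fewer lists must then hold a domain (siControl left out) or lack one (siANP32B left out). A score minimum or a siControl library left out also changes how many stretches are shared, so these counts cannot be compared as shares. With folds centred on the median, 2 of 4 regions of the window were below 0. List genes covered fell from 9 to 4 (siControl) and from 11 to 6 (siANP32B) at 80% of the span. Of 107 values under an alternative, 75 were held as unchanged, 29 moved and 3 reversed. For differences, unchanged means the same direction and a move of less than the spread, or no move. Counts have no spread, so that rule cannot apply to them, and nothing is read from their labels. The 75 include 11 means over the replicate block, which equal the main values by construction. Leaving out 1 siANP32B library also could not change values that were 0 in both, as for all members and the 790 kb stretch. The size of the 75 is therefore no measure of stability. Bridging gaps of up to 3 kb changed no value beyond the spread. At an FDR of 0.01, 3 of the 4 regions of the window were lower in the authors' deposited table.

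No paired test was made, since the window was picked for its difference. With the replicate number as a block, the window differed within numbers by -1273 and -1076 kb, mean -1174.5 kb. The numbers hardly paired the libraries (correlation of deviations 0.0852 over 20037 genes).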
